A study of Drosophila melanogaster with 12 samples.

Results

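The cytochrome P450 genes of Drosophila melanogaster were followed in adult heads through a light-dark day and the next day in constant darkness. Members were all genes whose platform symbol begins with Cyp and a digit, taken from probe sets with 1 gene symbol. Where a gene had several probe sets, the one of highest mean signal stood for it. The rule gave 83 genes of the 10844 genes with a symbol of their own on the array. Of these, 81 are P450 genes. The other 2, Cyp1 and Cyp40, share the letters but are cyclophilins, which are peptidyl-prolyl isomerases that help proteins fold, so the family name does not hold for them. They are kept in the counts over 83 genes and left out where 81 is stated.

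All flies were y w; tim01. They carried mutations of yellow (body colour) and white (eye pigment) and a loss-of-function allele of timeless, a gene of the circadian feedback loop, and no group without these alleles was analysed here. The flies had spent 3 days in cycles of 12 h light and 12 h darkness. Heads were then collected every 4 h for 1 further light-dark day (LD; ZT hours from lights-on) and for the following day in darkness (DD; CT hours from the expected lights-on). Each of the 12 arrays is a single time point, made from a pool of sieved heads. The groups were the LD light phase (ZT2, ZT6, ZT10), the LD dark phase (ZT14, ZT18, ZT22), the DD subjective day (arrays CT2, CT6 and CT10) and the DD subjective night (arrays CT14, CT18 and CT22), with 3 arrays each. DD followed LD in the same course, so darkness and the later day cannot be told apart. The labels give neither age nor sex. No time point is labelled as sampled again. In the contrasts, SDs over 3 arrays, SEs and p-values therefore rest on the spread between hours within a phase, technical differences included. SDs over 6 arrays span a whole day. P-values of rhythms rest on the departures of the arrays from the fitted curve.

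P450 enzymes are haem-containing monooxygenases that insert an oxygen atom into lipids, hormones and foreign chemicals. Insect P450s fall into the CYP2, CYP3, CYP4 and mitochondrial clans. Enzymes of the CYP2 and mitochondrial clans include those that make or break down the moulting hormone ecdysone, the CYP3 clan holds many that metabolise insecticides and plant toxins, and the CYP4 clan includes fatty acid hydroxylases and the enzyme that makes cuticular hydrocarbons. Several P450 transcripts have been reported to cycle in heads of wild-type flies, among them Cyp6a21 and Cyp4d21.

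The arrays hold log2 RMA signals, which compress differences of dim probe sets. Array medians lay between 4.10 and 4.14, and arrays correlated with each other, across probe sets, at 0.988 to 0.997. Photoreceptor genes were present at mean signals of 5.94 to 11.94 (9 genes). Marker lists of some organs outside the head stood high on a few arrays. The 30 gut genes deviated from their own means by 0.69 on average at ZT2, by 0.39 at CT2 and by 0.01 at ZT18, where the last lies within the -0.20 to 0.03 of the other 9. For 24 genes of the male reproductive tract this was 0.77, 0.43 and 0.26 at ZT2, CT2 and ZT18, and -0.21 to -0.07 elsewhere. The 12 genes listed for the Malpighian tubule lay between -0.06 and 0.05 on all 12 arrays, with mean signals from 2.22 to 7.45. Whether signals such as those of hbn (5.69) and Lkr (5.40) come from tubule or head cells was not tested. Their flat mean therefore does not show whether tubule transcripts were present. Of the gut and male reproductive tract lists, 9 of 30 and 16 of 24 genes read higher on all 3 arrays than on any of the other 9. Values without ZT2, ZT18 and CT2 are given for the named genes that leaving them out moved by over 1.5 times. For Cyp4g1 these are its own highest arrays, so p-values without them are no test of its course.

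Signals of the 83 genes covered most of the scale. The mean over the 12 arrays was at least 8 for 6 genes, 6 to 8 for 16, 4 to 6 for 25 and under 4 for 36, and the family median was 4.44, against 4.25 over all genes. A signal also depends on the probes, so the order of genes is one of signal and not of transcript amounts. The brightest P450 was Cyp28d1, an enzyme linked to nicotine resistance, with a lowest, median and highest signal of 10.09, 10.22 and 10.47. Next came Cyp6d5 (8.92, 9.12 and 9.33), which did not overlap with Cyp28d1 on any array. Cyp9b2 (8.17 to 8.38), Cyp4e2 (8.03 to 8.46) and Cyp313a1 (7.89 to 8.49) overlapped with each other, and so did Cyp9f2 (7.75 to 8.09) with the lower values of the last of these. Cyp6w1 ran from 7.42 to 7.72 and Cyp4g15, a P450 of the nervous system, from 7.35 to 7.66, again without separation. The mitochondrial Cyp12a4, which confers lufenuron resistance when overexpressed, read 6.68 to 7.0, Cyp4d21 6.20 to 7.13 and the mitochondrial Cyp12b2 6.47 to 6.69. The cyclophilin Cyp1 read 9.65 to 9.96.

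**Figure D1:**
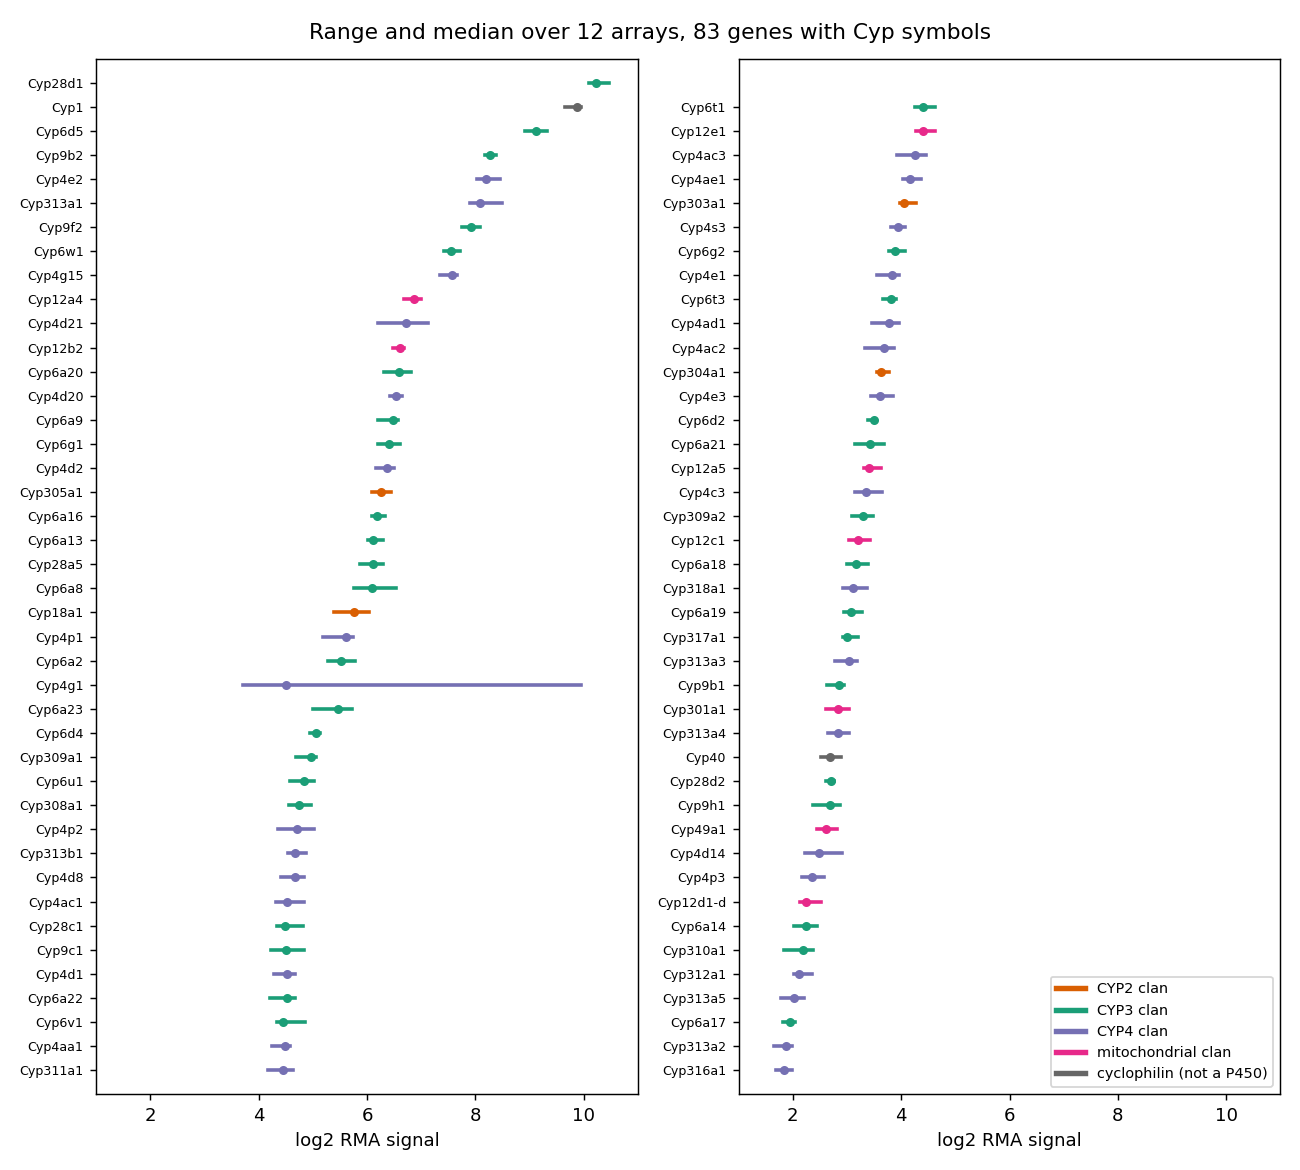
Lowest to highest log2 RMA signal over the 12 arrays (line) and median (point) for the 83 genes, ordered down the page by mean and coloured by clan. Most lines are short; that of Cyp4g1 runs from 3.72 to 9.95.

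At the dim end, Cyp316a1 (mean 1.83), Cyp313a2 (1.86), Cyp6a17 (1.94), Cyp313a5 (2.01), Cyp312a1 (2.13) and Cyp310a1 (2.19) lay well below the array medians. Such signals do not show whether the transcript was present. By clan, the median of the mean signals was 4.91 for the 4 genes of the CYP2 clan, 4.52 for 37 of the CYP3 clan, 4.21 for 32 of the CYP4 clan and 3.32 for 8 of the mitochondrial clan. By position, 41 of the 81 P450 genes lie next to another member among protein-coding genes (RefSeq, Release 6 plus ISO1 MT), in 14 runs. The longest run holds 9 genes (Cyp6a8, Cyp6a9, Cyp6a17, Cyp6a19 to Cyp6a23 and Cyp317a1), with mean signals from 1.94 for Cyp6a17 to 6.57 for Cyp6a20. Runs were set by position alone, and some mix families, such as Cyp316a1 with Cyp4d8. Sequences were not compared, and how far probes of a run also bind each other's transcripts was not tested. A probe set shared by Cyp12d1-d and Cyp12d1-p, near-identical copies, was no member and read 2.45 to 2.90.

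With 1 exception the transcripts moved little. The range over the 12 arrays was under 0.5 log2 units for 64 of 83 genes (77.1%, against 83.5% of all genes), and its median was 0.39 for the family and 0.36 for all genes. The widest ranges after that of Cyp4g1 were those of Cyp4d21 (0.94), Cyp6a8 (0.76), Cyp6a23 (0.71), Cyp4d14 (0.68), Cyp4p2 (0.65), Cyp18a1 (0.65), Cyp9c1 (0.61), Cyp313a1 (0.60), Cyp4p1 (0.55), Cyp4ac2 (0.54) and Cyp6a21 (0.54). All 8 mitochondrial members stayed under 0.5, from 0.22 for Cyp12b2 to 0.42 for Cyp301a1, a gene needed for adult cuticle formation.

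No array held most of the highs, but CT2 held more of the lows than the other arrays. There 14 genes had their lowest signal (16.9%, against 8.6% of all genes), including all 4 of the CYP2 clan: Cyp18a1 (5.39), Cyp303a1 (3.97), Cyp304a1 (3.55) and Cyp305a1 (6.08). The family as a whole was not lowest at CT2: its median deviation was -0.009, against -0.029 at ZT18 and -0.026 at CT22. At CT2, 17 of the 22 members with a mean of at least 6 lay below their own mean (median -0.035, all genes of that level -0.025). Of the 36 with a mean under 4, 22 lay above it (0.032, all genes 0.018). CT10 held the highest signal of 12 genes (14.5%, against 15.7% of all genes). On that array 28 of the 36 members with a mean under 4 lay above their own mean, with a median deviation of 0.05 (0.03 over all genes of that level), and 14 of the 22 with a mean of at least 6 lay below it, with a median of -0.04 (-0.03 over all genes). Both medians had the sign of those over all genes of like signal. CT2 is one of the arrays with high gut and male reproductive tract transcripts, and the part of other organs in the lows there was not tested.

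**Figure D2:**
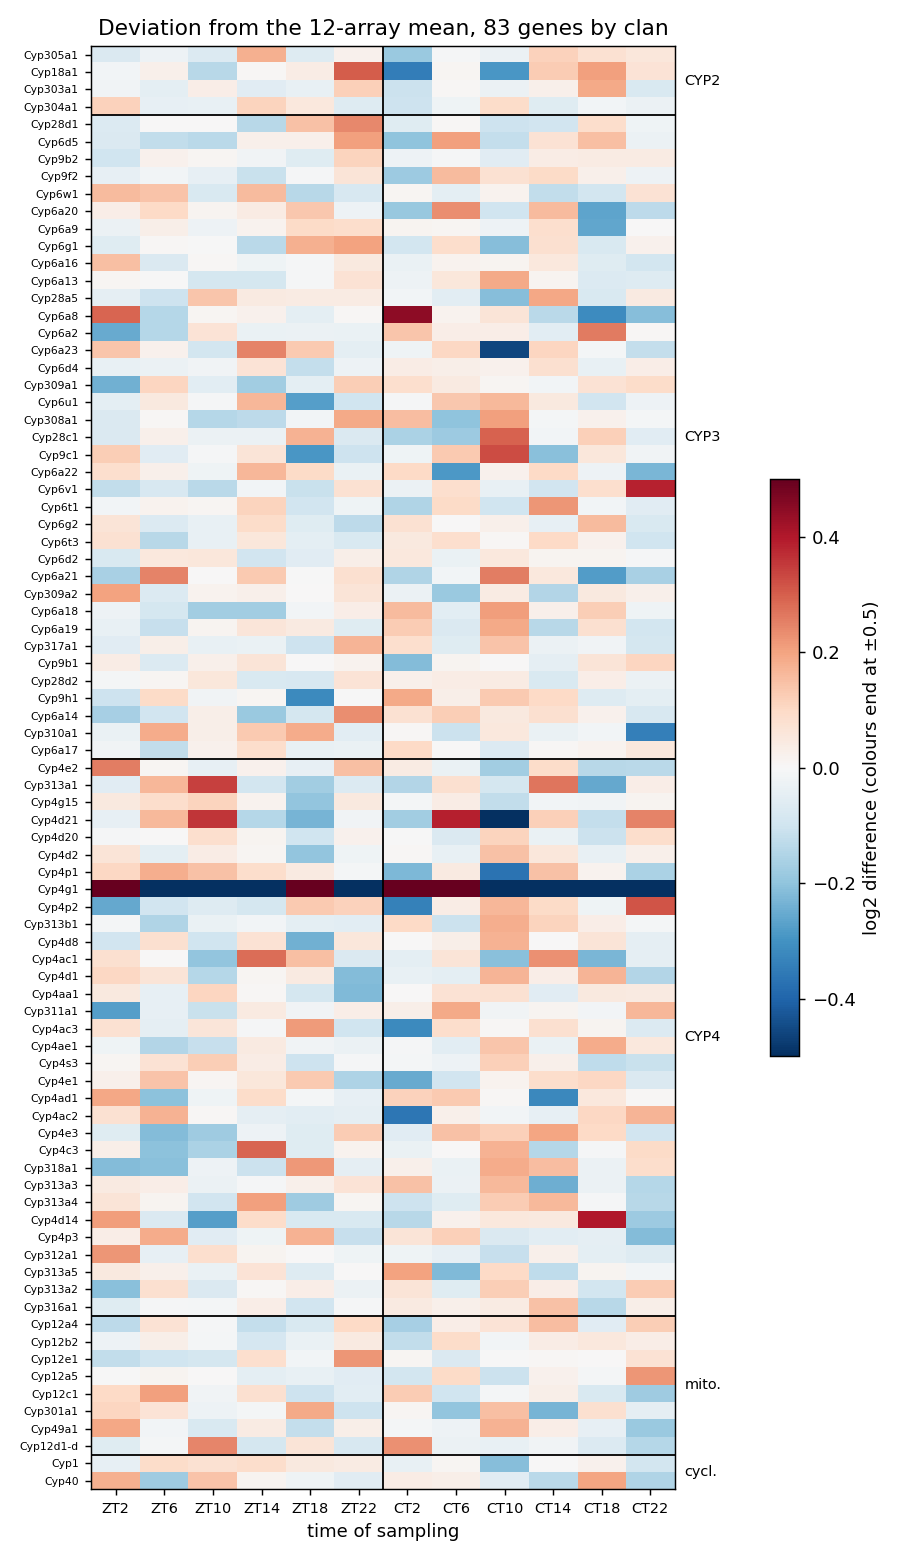
Log2 signal of each gene minus its mean over the 12 arrays, with genes grouped by clan and ordered by mean within a clan, and arrays in order of sampling. Colours end at 0.5 in either direction, which Cyp4g1 exceeds on every array.

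Cyp4g1 was the exception. It encodes the oxidative decarbonylase that makes cuticular hydrocarbons in oenocytes, the hydrocarbon-making cells of the abdominal body wall. The LD arrays gave signals of 9.95, 4.47, 4.64, 3.72, 7.88 and 4.11 in order of sampling, and the DD arrays 8.47, 6.12, 4.53, 3.95, 4.31 and 3.89. The array at ZT2 was highest, followed by CT2 and ZT18, then CT6, and the other 8 arrays lay within 0.93 of each other. The range of 6.24, a 75.3-fold difference between ZT2 and ZT14, was the widest of all 13966 probe sets, ahead of 5.82 for the next.

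The 3 highest arrays of Cyp4g1 were those on which the male reproductive tract list stood high. The mean of the gut list was high at ZT2 and CT2 and not at ZT18. Still, 9 of its 30 genes read higher on all 3 arrays than on any of the other 9. One was betaTry, at 7.074 at ZT18 against 6.125 to 6.314 on those 9. Among the other 9 arrays the mean of the gut list was highest at CT6, at 0.03. Cyp4g1 was the only member above the other 9 arrays on all 3, as were 1.19% of all probe sets. Its values there were 9.95, 7.88 and 8.47, against 3.72 to 6.12 on the other 9. In bulk heads, fewer cells of a type and less RNA per cell cannot be told apart, and the part of other organs in this course was not tested. The list of 10 oenocyte genes had a deviation of 0.16 at ZT2, 0.00 at ZT18 and -0.04 at CT2, and -0.04 to 0.03 on the other 9 arrays, with mean signals from 2.40 for eloF to 9.0 for Desat1. Within it, only CG18609 was higher on all 3 arrays than on the others, at 3.77, 2.88 and 2.97, against 2.47 to 2.81. The 12 Malpighian tubule and 11 fat body genes had 0 members above the other 9 arrays on all 3.

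**Figure D3:**
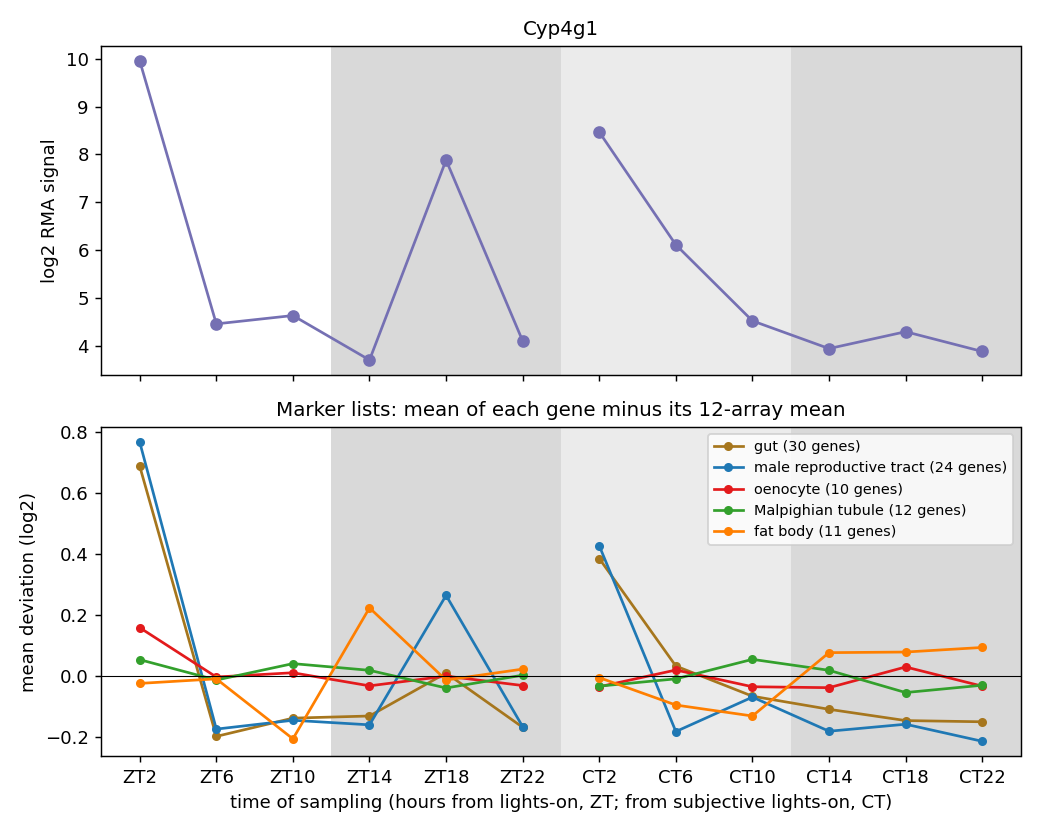
Top, log2 RMA signal of Cyp4g1 on each array. Bottom, mean deviation of marker genes from their own 12-array means (log2), by list. White marks the light phase, dark grey the dark phase and subjective night, light grey the subjective day. Cyp4g1 peaks at ZT2, ZT18 and CT2, as the male reproductive tract list does. At CT6 Cyp4g1 lies at 6.12 and the male reproductive tract list at -0.18. The gut list is at 0.03 at CT6, its highest value outside ZT2, ZT18 and CT2.

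The genes with the course most like that of Cyp4g1, by Pearson's r over the 12 arrays among all genes, were picked after their values had been seen. They were CG16904 (r = 0.97), Spn77Bb (0.97), Anp, which encodes the antibacterial peptide andropin of the male ejaculatory duct (0.96), CG17097 (0.96) and the accessory gland gene Mst57Da (0.95). These r rest largely on the 3 high arrays. On the other 9 arrays r was 0.86 for CG16904, 0.59 for Spn77Bb, 0.50 for Anp, 0.60 for CG17097 and 0.01 for Mst57Da. On those 9 arrays Cyp4g1 spanned 2.4 log2 units, and 0.93 without CT6, so these r depend much on CT6. Ranks 6 to 10 went to Acp95EF, EbpII, CG10911, alphaTry of the gut list and CG10252, with r from 0.94 to 0.95. Their r on the other 9 arrays was 0.27, -0.13, 0.78, 0.71 and 0.19 in that order. CG16904 read 5.46 at ZT2, 4.54 at ZT18, 4.97 at CT2 and 4.31 at CT6, against 3.85 to 4.08 at the other 8 times, so it shared the fourth high array of Cyp4g1. Mst57Da read 3.90 at CT6, within its 3.83 to 4.29 on the other low arrays. For alphaTry and CG10911, CT6 was the highest of the other 9 arrays, at 4.205 and 5.444.

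Among the P450 genes, the course nearest to that of Cyp4g1 was that of Cyp6a8 (r = 0.72), a barbiturate-inducible P450. Its LD arrays stood at 6.37, 5.94, 6.09, 6.10, 6.03 and 6.08 and its DD arrays at 6.53, 6.10, 6.14, 5.95, 5.76 and 5.87, in order of sampling. ZT2 and CT2 were its highest arrays, and Cyp6a8 and Cyp4g1 were the 2 members with those arrays above the other 10, which holds for 2.56% of all probe sets. At ZT18, where Cyp4g1 was high, Cyp6a8 was not.

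Whether P450 transcripts follow the light-dark cycle without timeless was asked by setting the light phase of LD against its dark phase. With limma, 0 of the 83 genes passed an adjusted p of 0.05 (0.129% of all probe sets did), and 2 had an unadjusted p under 0.05 (2.41%, against 6.26% of all probe sets). The median change was -0.01, with 36 genes higher and 47 lower in the light. For all genes it was 0.00, with 48.3% higher. By clan, 11 of 37 CYP3 genes were higher and 26 lower, 17 of 32 CYP4 genes were higher, 7 of 8 mitochondrial genes were higher, and all 4 CYP2 genes were lower, at medians of -0.03, 0.01, 0.04 and -0.06.

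The smallest p in this contrast belonged to Cyp12e1, a mitochondrial P450, which read 4.28, 4.30 and 4.31 in the light and 4.48, 4.39 and 4.62 in the dark. Its groups did not overlap, and the difference of -0.20 ± 0.07 (SE) did not pass (adjusted p = 0.591). Cyp313a1 read 8.09, 8.32 and 8.49 in the light and 8.06, 7.98 and 8.08 in the dark, a difference of 0.26 ± 0.12 (adjusted p = 0.787). The light-phase values climbed from hour to hour and the lowest of them barely cleared the dark phase. Cyp6d5 was lower in the light on every array, at 9.01 ± 0.03 against 9.21 ± 0.10 (SD, n = 3 arrays each; difference -0.20, limma adjusted p = 0.831). Cyp311a1 (-0.16) and Cyp4c3 (-0.19) followed, the second at -0.34 ± 0.11 without ZT2, ZT18 and CT2 (adjusted p = 0.58). In all, 7 members had light and dark groups that did not overlap, 4 higher and 3 lower in the light (8.43%, against 12.2% of all probe sets). Cyp4g1 had a difference of 1.12 ± 1.24 (adjusted p = 0.96), which was -0.68 without ZT2, 2.44 without ZT18, -0.40 with the gut level as a covariate and 0.64 ± 0.31 without ZT2, ZT18 and CT2 (adjusted p = 0.859).

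The contrast of subjective day and night in DD asks the same without light. Again 0 of 83 genes passed (0.0644% of all probe sets did), and 3 had an unadjusted p under 0.05 (3.61%, against 5.84%). The median change was 0.01, with 45 genes higher and 38 lower in the subjective day, and 0.01 over all genes. By clan, 21 of 37 CYP3 genes, 18 of 32 CYP4 genes, 4 of 8 mitochondrial genes and 1 of 4 CYP2 genes were higher (52.0% of all genes). Their medians were 0.02, 0.01, 0.00 and -0.12. The clan counts of either day were not tested, as genes of a clan are not replicates. Cyp6a8 had the smallest p, at 6.26 ± 0.24 in the subjective day and 5.86 ± 0.09 in the subjective night (SD, n = 3 arrays each), a difference of 0.40 ± 0.11 (SE) or 1.32-fold (limma adjusted p = 0.592). Its 3 day arrays lay above its 3 night arrays. Without the arrays at ZT2, ZT18 and CT2 the difference was 0.26 ± 0.09 (adjusted p = 0.807).

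Cyp18a1, which inactivates ecdysteroids by 26-hydroxylation, ran the other way. It read 5.39, 5.75 and 5.44 in the subjective day and 5.86, 5.94 and 5.80 in the subjective night, with a difference of -0.34 ± 0.10 (adjusted p = 0.592). All night arrays were above all day arrays, with CT6 the nearest to them. In LD it read 5.72, 5.76 and 5.60 in the light and 5.74, 5.77 and 6.04 in the dark, where the groups overlapped. Cyp313a3 was 0.23 ± 0.08 higher in the subjective day, from 3.18, 3.0 and 3.19 in the day and 2.78, 3.0 and 2.88 in the night (adjusted p = 0.77). Cyp305a1 differed by -0.16 ± 0.07 and Cyp4ac2 by -0.19 ± 0.10, both with an adjusted p of 0.829. Without ZT2, ZT18 and CT2 these were -0.10 ± 0.08 and -0.07 ± 0.09.

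The groups of 6 members did not overlap in DD, 3 higher and 3 lower (7.23%, against 10.2% of all probe sets). Cyp4g1 was among them, at 8.47, 6.12 and 4.53 in the subjective day and 3.95, 4.31 and 3.89 in the subjective night. The difference was 2.32 ± 1.24 (SE; adjusted p = 0.829). With ZT2, ZT18 and CT2 left out it was 1.27 ± 0.29 (limma adjusted p = 0.185). There CT6 (6.12) and CT10 (4.53) stand for the subjective day. The arrays left out are the highest of Cyp4g1 itself, so the smaller SE follows from that choice. With the gut level as a covariate the difference was 0.53, and without CT10 3.24.

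Whether the day-night contrast differed between DD and LD was tested directly, and 0 of 83 members passed with limma, as did 0% of all probe sets. An unadjusted p under 0.05 was seen for 2 members (2.41%, against 5.21% of all probe sets). These were Cyp4ac2 (-0.33 ± 0.13) and Cyp313a3 (0.25 ± 0.11), followed by Cyp4p1 (-0.29 ± 0.14), Cyp6a8 (0.34 ± 0.16) and Cyp4d21 (-0.48 ± 0.24), all with an adjusted p of 0.935. For Cyp4ac2 the difference was -0.21 ± 0.14 without ZT2, ZT18 and CT2. Cyp4d21, also known as sex-specific enzyme 1 and enriched in male heads, had the widest range after Cyp4g1. It read 6.70, 6.91 and 7.10 in the LD light phase and 6.60, 6.51 and 6.72 in the dark phase, and 6.57, 7.13 and 6.20 in the DD subjective day against 6.86, 6.62 and 6.99 in the subjective night. Its highest and lowest arrays, CT6 and CT10, were neighbours in time. The yolk protein gene Yp1, a transcript of females, lay between 13.18 and 13.53 on the 12 arrays. That is near the top of the scale, where the highest gene mean was 13.61. Yp1 is 1 gene of the fat body list, whose mean deviation over 11 genes ran from -0.21 at ZT10 to 0.22 at ZT14. The part of the sexes in the course of Cyp4d21 was not tested.

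Between the days, 0 of 83 members passed in the DD day against the LD day (0.0215% of all probe sets did), and 5 had an unadjusted p under 0.05 (6.02%, against 11.1% of all probe sets). The median difference was 0.00 for the members and 0.01 for all genes. Cyp4p1 came nearest: it read 5.34, 5.60, 5.19, 5.70, 5.58 and 5.40 from CT2 to CT22, against 5.66, 5.74, 5.70, 5.64, 5.60 and 5.55 from ZT2 to ZT22. It was lower in DD at 5 of 6 hours, by 0.18 ± 0.07 (SE; adjusted p = 0.321). The LD values stayed close together and the DD values spread over a wider range, with lows at CT2, CT10 and CT22. Cyp6a18 (0.15 ± 0.06), Cyp6a2 (0.14 ± 0.06), an enzyme that metabolises insecticides, and Cyp4e3 (0.14 ± 0.06) were higher in DD and Cyp310a1 (-0.15 ± 0.07) lower, with adjusted p from 0.37 to 0.437. For Cyp6a2 the difference was 0.09 ± 0.07 without ZT2, ZT18 and CT2. The sign was the same at all 6 hours for 3 members, Cyp313b1, Cyp4s3 and Cyp6d4 (3.61%, against 7.02% of all probe sets), with 2 of them higher in DD and 1 lower. Cyp4g1 averaged 5.21 ± 1.79 in DD and 5.80 ± 2.52 in LD (SD, n = 6 arrays each). The difference of -0.58 ± 0.87 (SE; limma adjusted p = 0.842) turned to 0.45 ± 0.21 without ZT2, ZT18 and CT2 (adjusted p = 0.571), to 0.31 without ZT2 alone and to 0.08 without ZT18 alone.

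The DD subjective day and the LD light phase share their clock hours and differ in light. Here 0 of 83 members passed (0.186% of all probe sets did), and 6 had an unadjusted p under 0.05 (7.23%, against 11.5%). Cyp4p1 was lower in the subjective day, at 5.38 ± 0.21 against 5.70 ± 0.04 in the light (SD, n = 3 arrays each), by 0.33 on the log2 scale or 1.25-fold (limma adjusted p = 0.193). Without CT6, the highest of the 3 day arrays, the difference was -0.44 and passed (adjusted p = 0.0284), so this call rests on which arrays enter. Its adjusted p ran from 0.0284 to 0.62 over the 22 alternatives. Cyp311a1 (0.21 ± 0.08), Cyp4e3 (0.22 ± 0.09), Cyp6a18 (0.20 ± 0.09) and Cyp318a1 (0.21 ± 0.09) read higher in the subjective day, with adjusted p from 0.336 to 0.408. For Cyp4e3 the values were 3.59, 3.80 and 3.77 in the subjective day and 3.59, 3.43 and 3.47 in the light, where the ZT2 and CT2 arrays nearly met. The groups of 9 members did not overlap, 7 higher and 2 lower in the subjective day by sample mean (10.8%, against 15.5% of all probe sets).

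In the DD subjective night against the LD dark phase, both dark, 0 members passed with limma, as did 0% of all probe sets, and 2 had an unadjusted p under 0.05 (2.41%, against 4.87%). These were Cyp310a1 (-0.22 ± 0.10) and Cyp313a3 (-0.17 ± 0.08), followed by Cyp6a8 (-0.21 ± 0.11), Cyp6a21 (-0.20 ± 0.12) and Cyp12a5 (0.12 ± 0.08), all with an adjusted p of 0.998. Cyp6a8 averaged 5.86 ± 0.09 in the subjective night and 6.07 ± 0.04 in the LD dark arrays (SD, n = 3 each). Groups did not overlap for 6 members (7.23%, against 10% of all probe sets). The 4 contrasts of phases share arrays with each other, so their values are not independent.

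Rhythms of 24 h were fitted to the 6 arrays of each day and to both days together. In LD, 0 members passed (0.107% of all probe sets did) and 0 had an unadjusted p under 0.05 (5.73% of all probe sets). In DD 0 members passed (0.00716% did), and 3 had an unadjusted p under 0.05 (3.61%, against 3.72%). With 1 rhythm for both days 0 passed (0.0358% did), and 3 had an unadjusted p under 0.05 (3.61%, against 6.32%). The median fitted amplitude, mean to peak on the log2 scale, was 0.07 in LD, 0.07 in DD and 0.06 for the shared rhythm, against 0.07, 0.07 and 0.05 over all genes.

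For the shared rhythm, the smallest p belonged to Cyp6u1 (amplitude 0.12, fitted peak at 8.7 h, adjusted p = 0.777), Cyp4s3 (0.09, 8.7 h), Cyp6a21 (0.14, 9.9 h, adjusted p = 0.781), Cyp4g1 (1.56, 1.8 h, adjusted p = 0.792) and Cyp18a1 (0.15, 19.2 h, adjusted p = 0.801). The transcript of Cyp6a21 is one of those reported to cycle in wild-type heads. It read 3.26, 3.67, 3.42, 3.55, 3.42 and 3.50 in LD and 3.27, 3.41, 3.67, 3.47, 3.14 and 3.26 in DD. Its highest arrays were ZT6 and CT10 and its lowest CT18, and the signal lay below the array medians. In DD alone its amplitude was 0.22 with a peak at 9.7 h. The amplitude of Cyp6a8 in DD was 0.27 with a peak at 4.7 h, that of Cyp4e1 0.16 at 14.7 h, that of Cyp18a1 0.21 at 17.4 h and that of Cyp4e3 0.14 at 11.7 h, all with an adjusted p of 1. For Cyp6a8 this amplitude was 0.18 without ZT2, ZT18 and CT2. In LD, Cyp313a1 (0.22, peak at 8.0 h), Cyp318a1 (0.16, 17.1 h) and Cyp4e3 (0.14, 20.4 h) had the smallest p, with adjusted p from 0.886 to 0.931, followed by Cyp6u1 (0.12, 9.0 h) and Cyp4g15 (0.11, 6.3 h). Without ZT2, ZT18 and CT2 the amplitude was 0.06 for Cyp318a1 and 0.05 for Cyp4g15. Without ZT2, ZT18 and CT2, the highest arrays of Cyp4g1, its shared amplitude was 0.77 with a peak at 5.3 h (limma adjusted p = 0.32). On all arrays with the gut level as a covariate this amplitude was 0.18 (limma adjusted p = 0.976).

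**Figure D4:**
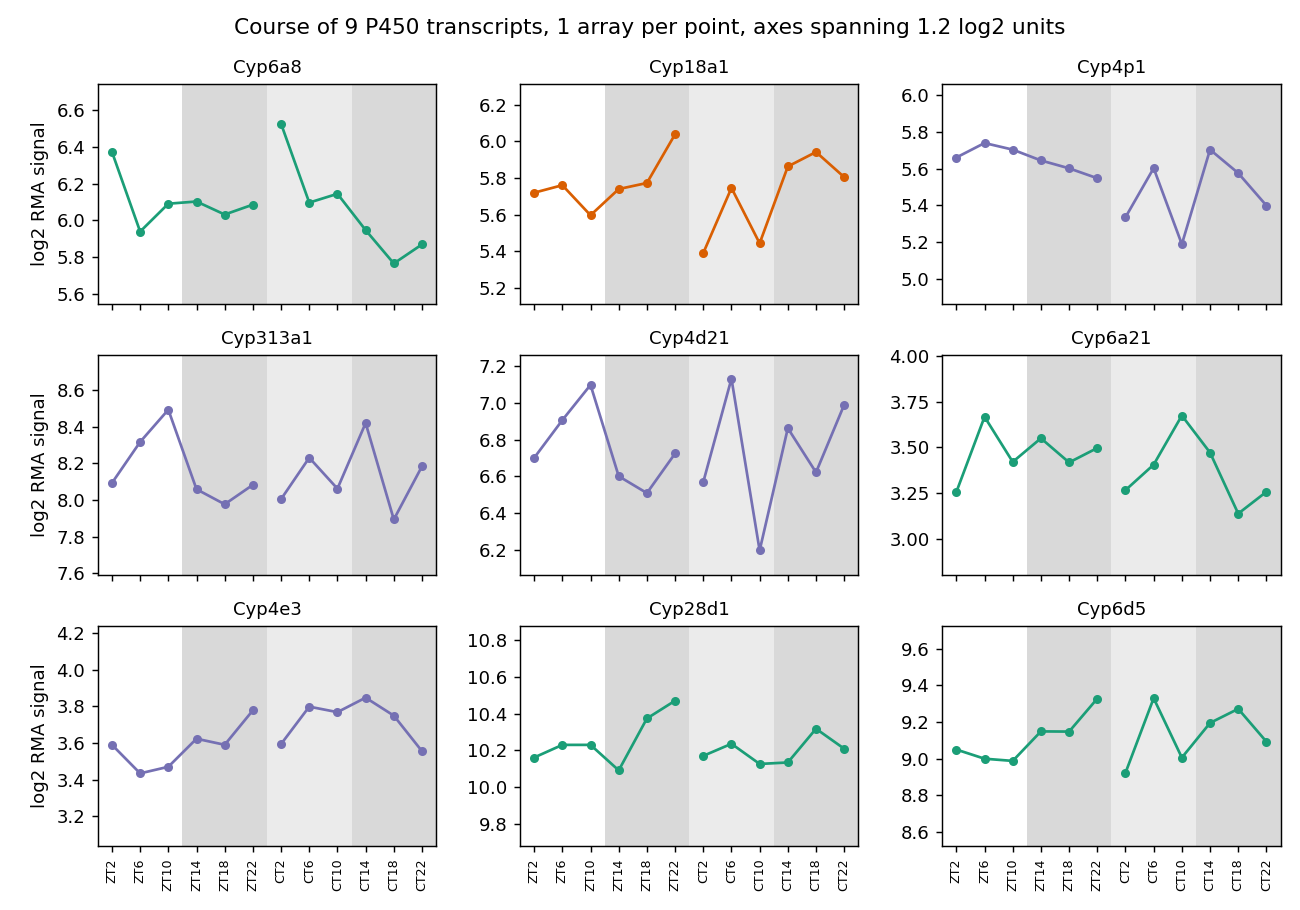
Log2 RMA signal of 9 P450 transcripts on each array in order of sampling, 1 array per point; each axis spans 1.2 log2 units. Shading is white for light, dark grey for the dark phase and subjective night, and light grey for the subjective day. Cyp6a8 is highest at ZT2 and CT2, Cyp18a1 is lowest at CT2 and CT10, and Cyp4d21 runs from 7.13 at CT6 to 6.20 at CT10.

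None of the members with described roles in detoxification passed a comparison with limma. Cyp6g1, whose overexpression gives resistance to DDT, read 6.19 at its lowest (CT10), 6.41 at the median and 6.61 at its highest (ZT22). Cyp6a2 ran from 5.27 at ZT2 to 5.78 at CT18, with a median of 5.51. Cyp12d1-d, a mitochondrial P450 induced by xenobiotics, lay between 2.14 and 2.52. Cyp28d1 had its highest arrays at ZT22 (10.47) and ZT18 (10.37). The 9 regulators of xenobiotic and hormone response measured here had 0 members passing in any of the 9 comparisons (smallest limma adjusted p 0.36). Among them were the Nrf2 homologue cnc (mean 4.32), its inhibitor Keap1 (2.40) and the nuclear receptor Hr96 (2.38). Keap1, Hr96 and Cyp12d1-d lay well below the array medians, where signals do not show whether the transcript was present.

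Of P450s tied to hormones and behaviour, Cyp6a20, which affects male aggression, read 6.31 at its lowest (CT18), 6.60 at the median and 6.81 at its highest (CT6). Cyp6t3, which acts in ecdysone synthesis in the larval prothoracic gland, lay between 3.66 and 3.90. Cyp303a1, needed for external sensory organs, lay between 3.97 and 4.27. The neighbours Cyp4ac1, Cyp4ac2 and Cyp4ac3 had means of 4.55, 3.68 and 4.24, Cyp4aa1 4.46, and the mitochondrial Cyp12a5 3.41, beside 6.85 for its neighbour Cyp12a4. Among 6 genes of ecdysone synthesis that carry other symbols, the P450 genes dib, sad, shd, phtm and spo had means of 3.47, 5.65, 2.80, 5.27 and 1.93, and the dehydrogenase gene sro 4.49. None of these 6 passed (0 in the 9 comparisons, smallest limma adjusted p 0.249). Of them, dib, shd and spo lay below the array medians. The electron carriers measured were Cyt-b5 (7.0 to 7.49), Cyt-b5-r (9.62 to 9.94), and the ferredoxin genes Fdx1 (5.40 to 5.75) and Fdx2 (6.17 to 6.46), which serve mitochondrial enzymes. Among them 0 of 4 passed, with a smallest adjusted p of 0.288.

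Where a gene had a further probe set, its signal could differ. The second probe set of Cyp9b2 had a mean of 5.07 against 8.27 for the brighter one, that of Cyp9f2 7.5 against 7.93, that of Cyp318a1 2.93 against 3.15, and that of Cyp49a1 2.51 against 2.63. The ranges of these second probe sets over the arrays were 0.30 to 0.33. Those of the brighter probe sets were 0.21 for Cyp9b2, 0.34 for Cyp9f2, 0.43 for Cyp318a1 and 0.38 for Cyp49a1.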

How the data were processed

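Signals were deposited on the log2 scale, 1 for each probe set on each of the 12 arrays; the authors made them with RMA, per the submitters' processing notes. That method corrects background, normalizes between arrays and summarises probes. Its software and version: not given in the sources used here. RMA brings arrays to nearly 1 distribution, so a shift shared by most transcripts is hidden. The files hold no detection calls, and the number of arrays limits the precision.

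Of 14010 probe sets, 44 controls were left out and 13966 tested. All 83 members matched the RefSeq gene table by Entrez number, with 0 symbols changed. No genome sequence was used. Gene positions, which set the runs of neighbours, came from the same RefSeq table. All 12 arrays entered each fit (R 4.3.3; limma 3.58.1, moderated with an intensity trend): 1 mean per group (8 residual and 8.62 prior degrees of freedom) for contrasts, and a mean, cosine and sine per day (6 and 8.41), or 1 cosine and sine for both days (8 and 8.25), for rhythms. P-values were adjusted by Benjamini-Hochberg over all probe sets, with a threshold of 0.05. SEs are limma's. The steps were tested on simulated data.

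Named genes are the 12 brightest, the 6 dimmest, the 12 with the widest range, the 5 with the smallest p in each comparison, and a list of members with described roles. Members and lists were chosen with earlier results of these data known. Alternatives changed the moderation, weights, filter, normalization, arrays, probe sets, covariates and the clock hour as a block.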

Additional observations from a re-analysis of the deposited data

Results flagged for a closer look

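Within each day of 6 arrays, the highest or lowest signal of each gene was set against its neighbours with Dixon's test. Of 166 such groups, 7 had an array far from the others (4.22%, where chance gives about 1 in 20). Cyp4g15 was low at ZT18, at 7.353 with the others at 7.57 to 7.66, and again at CT10, at 7.428 with the others at 7.53 to 7.59. Cyp305a1 was high at ZT14 (6.445, others 6.20 to 6.29) and Cyp12d1-d high at CT2 (2.507, others 2.14 to 2.26). Cyp313b1 was low at ZT6 (4.541, others 4.63 to 4.68), Cyp4ad1 low at CT14 (3.452, others 3.78 to 3.91) and Cyp6a9 low at CT18 (6.209, others 6.45 to 6.55). Cyp4g1 was not among them.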

How the results depend on the processing

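Of 196 alternative counts of members called, 195 were 0, as in the fits reported. The exception was the DD subjective day against the LD light phase, where leaving out 1 array gave 0 to 1 members, the 1 being Cyp4p1 without CT6. The 131 alternative medians of the family ran from -0.032 to 0.036, against -0.014 to 0.018 in the contrasts reported. Counting the 81 P450 genes alone, chosen after seeing the data, gave 0 as well. Cyp4g1 changed direction. Its DD minus LD difference of -0.58 was 0.453 without ZT2, ZT18 and CT2, and -1.108 to 0.315 when single arrays were left out. Its light minus dark difference in LD of 1.12 was -0.402 with the gut level as a covariate, and -0.681 to 2.44 when single arrays were left out. None of these passed.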
